A study of Mus musculus with 72 samples.

Results

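Genes of ribosome biogenesis, the building of ribosomes in the nucleolus, were followed across mouse melanoma lines treated with gastrin-releasing peptide (GRP). The 42 members were chosen by name among the 50600 genes counted. No cut on a measured value was used, but earlier results of these data were known. They fall into 7 role classes, which are 3 box C/D snoRNP proteins, 4 box H/ACA snoRNP proteins, 6 nucleolar chaperones and regulators, 4 RNA polymerase I genes, 6 small subunit processome proteins, 5 late small subunit maturation factors and 14 large subunit assembly factors. RNA was sequenced in 72 libraries, with 3 replicates of each of 4 treatments in each of 6 lines. Cells were starved for 18 h in 0.5% FCS and then received for 4 h 0.1% DMSO (mock), 10 nM GRP, 1 µM RC-3095 (RC, an antagonist of the GRP receptor GRPR), or GRP and RC together (GRP+RC). DMSO is given for mock only, and whether the other treatments held it is not stated in the labels.

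All 6 lines came from melanomas of mice carrying Tyr::NRASQ61K/°, a mutant NRAS driven by the tyrosinase promoter, which is active in melanocytes. Lines 1057 and 1064 were female and GRPR-positive, with the genotype Tyr::NRASQ61K/°; Cdkn2a-/-;Tyr::CreA/°;Cdh1dF/dF, in which Cdkn2a was lost and the E-cadherin gene Cdh1 was deleted. Line 1181 was described as male and listed as Tyr::NRASQ61K/°; Cdkn2a-/-;°/°;Cdh1dF/dF, without the Cre transgene. Line 1014 was female and listed as Tyr::NRASQ61K/°. The paper treats both 1181 and 1014 as E-cadherin-positive, so the dF/dF listed for 1181 goes against the paper. 1181-Grpr and 1014-Grpr carried CMV::Grpr/tGFP, which drives the receptor from a viral promoter, and 1181-Ctrl and 1014-Ctrl carried CMV::tGFP alone. Each genotype was thus represented by 1 or 2 lines, and a line and its genotype cannot be told apart. The study's methods describe its cell culture work as at least biological triplicates, while the labels give only a replicate number, so p-values measure the spread between these samples.

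Library totals ranged from 19512882 to 46862053 counts. All 8 melanocyte markers were detected in each line, with a summed level of at least 7372 TPM (the authors' measure of transcripts per library, scaled for gene length), whereas the 4 markers each of keratinocytes, fibroblasts, immune cells and endothelium never summed to more than 10.2 TPM. There were 2 libraries that went against their labels, and they are written as labelled. The library labelled 1014-Ctrl mock replicate 2 held 1165 counts of Grpr and 1557 of the Y-linked Ddx3y, where the other 11 libraries of that line held at most 1 and 0. The library labelled 1181-Grpr GRP+RC replicate 2 held 0 counts of Grpr and 0 of Ddx3y, where the other 11 held at least 216 and 1001. The main values include both libraries, and values without them are given beside the results of 1014-Ctrl, 1181-Grpr and the 1014 difference. The other 11 libraries of 1181-Grpr also held 4616 to 8931 counts of the X-linked Xist, where the 12 of 1181-Ctrl held 1 to 20. The other 11 of the female 1014-Ctrl held 15323 to 31669. The library labelled 1014-Ctrl mock replicate 2 held 4164 counts of Xist, and that labelled 1181-Grpr GRP+RC replicate 2 held 20865. In Grpr, Ddx3y and Xist each of the 2 was thus nearer the other libraries of the other's labelled line. Whether they had been exchanged was not tested. By their Xist counts the 2 versions of 1181 differed in more than Grpr, and the cause was not tested.

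Ribosome biogenesis begins with transcription of ribosomal DNA by RNA polymerase I. Box C/D and box H/ACA snoRNPs modify the transcript, and the small and large subunit precursors are then cut, folded and exported by separate sets of assembly factors. The pathway is a major consumer of energy in dividing cells, slows when serum is withdrawn, and is under the control of growth factor signalling and of the transcription factor MYC, which binds E-boxes with the letters CACGTG.

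The E-box stretches are shown because Myc is followed below beside the members. RefSeq promoter windows of GRCm38.p6, 250 bases before to 50 bases after a gene start, were found for 37 of the 42 members. The letters CACGTG, which read the same on both strands, occurred in a window of 9 of these 37 members (24.3%) and of 2187 of all 27025 genes with a window (8.09%). Counted by window, 9 of 46 member windows (19.6%) and 7.15% of all 32851 windows held it. A match is a description of these letters and not evidence of a binding site. The 9 stretches follow 5′ to 3′ on the gene's strand, with CACGTG in capitals.
Mybbp1a: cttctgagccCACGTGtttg
Wdr43: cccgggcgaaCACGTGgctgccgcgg
Utp20: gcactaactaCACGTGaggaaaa
Tsr1: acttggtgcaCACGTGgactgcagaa
Pno1: tacaaccacgCACGTGttcctct
Ltv1: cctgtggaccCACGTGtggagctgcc
Nop2: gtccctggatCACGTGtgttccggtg
Pes1: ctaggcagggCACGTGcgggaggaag
Grwd1: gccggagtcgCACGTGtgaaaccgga
These stretches lie at chr11:72441357-72441376 (Mybbp1a), chr17:71616222-71616247 (Wdr43), chr10:88826765-88826787 (Utp20), chr11:74898094-74898119 (Tsr1), chr11:17211540-17211562 (Pno1), chr10:13193094-13193119 (Ltv1), chr6:125131813-125131838 (Nop2), chr11:3963967-3963992 (Pes1) and chr7:45830740-45830765 (Grwd1). Utp20, Pno1, Ltv1 and Grwd1 are on the minus strand and the other 5 on the plus strand. The first base of CACGTG lies 60 bases before the gene start in Nop2 and 2 to 40 bases after it in the other 8. The members with the letters spanned much of the response described next. After GRP in 1014-Grpr their log2 fold changes ran from 0.32 to 0.85 (median 0.77, n = 9), beside 0.06 to 1.01 (median 0.66) for the 27 tested members whose windows lack them. In 1057 the corresponding medians were 0.32 and 0.23.

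Across members, 41 of 42 could be tested in each line. Wdr74, a large subunit assembly factor, had 0 counts in 51 libraries and at most 4 in any, so it was not tested, and the cause was not tested. The lowest count of any other member in any library was 228. Per transcript length, Npm1, the nucleolar histone chaperone nucleophosmin, had the highest level of all members in the mock libraries of each line, from 520 ± 61.6 TPM in 1014-Grpr to 1148 ± 28.3 TPM in 1057 (SD, n = 3). Wdr12, a partner of Bop1 and Pes1, had the lowest level of the 41 in each line, between 8.98 ± 0.855 TPM in 1014-Grpr and 16.2 ± 0.417 TPM in 1057. The spread of a member between lines was widest for Nop16, whose mock mean ranged 3.33-fold from 23.8 TPM in 1014-Grpr to 79.3 TPM in 1057.

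**Figure D1:**
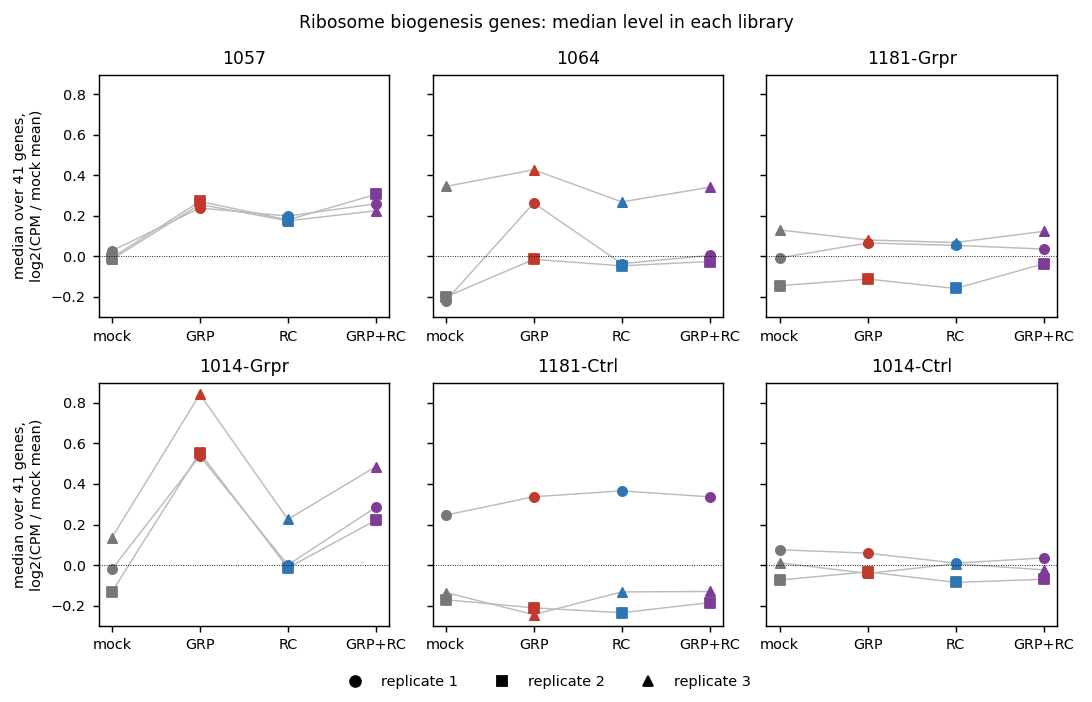
Each point is 1 library, and the y axis is the median over 41 ribosome biogenesis genes of log2(CPM / mock mean of the line). Treatments are on the x axis, symbols mark replicate numbers and lines join libraries with the same number. GRP libraries of 1014-Grpr reach 0.54 to 0.84, those of 1057 0.24 to 0.27, and in 1064 and 1181-Ctrl 1 replicate number sits above the others in each treatment.

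Whether GRP acted on ribosome biogenesis genes where the receptor was supplied was asked in 1014-Grpr. There 37 of 41 members rose, 0 fell, and the median log2 fold change was 0.66, from -0.12 to 1.17. Over all genes tested, 16.3% rose and 12.7% fell, with a median of -0.02. A gene was called here and below at an adjusted p under 0.05 in edgeR's quasi-likelihood test, and levels are CPM, counts relative to library size after TMM scaling within a line. Such values are shares of the RNA sequenced, so in these bulk libraries fewer cells with a transcript and less of it per cell cannot be told apart. In 37 members all 3 GRP libraries lay above all 3 mock libraries, as they did in 21.6% of all genes. With the replicate number as a block, Pno1 and Ubtf rose as well and Bop1 fell, giving 39 higher and 1 lower. The shares of all genes above are from the fit without the block, and those with the block are not given here. Grpr itself, the transgene in these cells, moved in the same comparison. It was at 129, 110 and 143 CPM in mock and 409, 591 and 638 CPM after GRP, a log2 fold change of 2.10 ± 0.182 (SE, adjusted p = 7.52e-06), and its part in the members' response was not tested.

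The members with the largest changes in 1014-Grpr belong to both subunits' assembly. Rrp12 (ENSMUSG00000035049, chromosome 19 from 41862851 to 41896173, GRCm38), needed for maturation and export of pre-ribosomes, was at 20.5, 17.4 and 25.7 CPM in mock and 41.1, 48.1 and 53.1 CPM after GRP. The groups did not overlap, and the log2 fold change was 1.17 ± 0.173 (SE, adjusted p = 0.000388). Ppan (ENSMUSG00000004100, chromosome 9 from 20888175 to 20892178), a factor of large subunit pre-RNA processing, went from 42.8, 35.1 and 42.6 CPM to 77.0, 82.5 and 82.6 CPM. Its GRP libraries lay close together, and the log2 fold change was 1.01 ± 0.0892 (adjusted p = 8.7e-06). These were the only members called with a log2 fold change above 1 in this comparison.

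Rrp1b (ENSMUSG00000058392, chromosome 17 from 32036100 to 32062865), a nucleolar protein of the large subunit pathway, was at 21.1, 21.6 and 21.8 CPM in mock and 41.8, 41.6 and 38.6 CPM after GRP. The spread within each group was small against the change of 0.92 ± 0.0712 (SE, adjusted p = 3.3e-06). Nop58 (chromosome 1 from 59684971 to 59719044), a core protein of box C/D snoRNPs, went from 83.7, 78.3 and 93.0 CPM to 133, 152 and 178 CPM. Its log2 fold change was 0.86 ± 0.121 (adjusted p = 0.00027). Wdr43 (chromosome 17 from 71615895 to 71659031), a small subunit processome protein with CACGTG in its window, went from 81.9, 70.7 and 90.9 CPM to 130, 151 and 157 CPM. It changed by 0.85 ± 0.117 (adjusted p = 0.000236), and for both genes replicate 3 was highest in both groups.

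By role, the 6 small subunit processome members had the highest median of the 7 classes in 1014-Grpr (0.81), and all 6 rose, from Utp20 (0.56) to Rrp12 (1.17). All 6 nucleolar chaperones and regulators rose, with a median of 0.72. They include Mybbp1a (0.79) and Npm1 (0.48). Of the large subunit assembly factors 12 of 13 rose (median 0.68), Bop1 at -0.12 being the exception. Of the late small subunit factors 4 of 5 rose (median 0.63), with Pno1 at 0.38 not past the test without the block.

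The snoRNP proteins, which carry the guide RNAs for rRNA methylation (box C/D) and pseudouridylation (box H/ACA), moved in part. All 3 box C/D members rose, Fbl, the methyltransferase fibrillarin, least (0.37). Of the 4 box H/ACA members 3 rose, with Dkc1, the pseudouridine synthase dyskerin, at 0.71. Nop10, the smallest protein of the H/ACA complex, was at 21.3, 26.8 and 22.2 CPM in mock and 22.4, 28.3 and 22.9 CPM after GRP (0.06, adjusted p = 0.705). The subunits of RNA polymerase I rose by 0.53 (Polr1b), 0.52 (Polr1a) and 0.42 (Polr1c), whereas Ubtf, its upstream binding factor, stood at 0.17. Those 4 genes had the lowest class median (0.47).

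**Figure D2:**
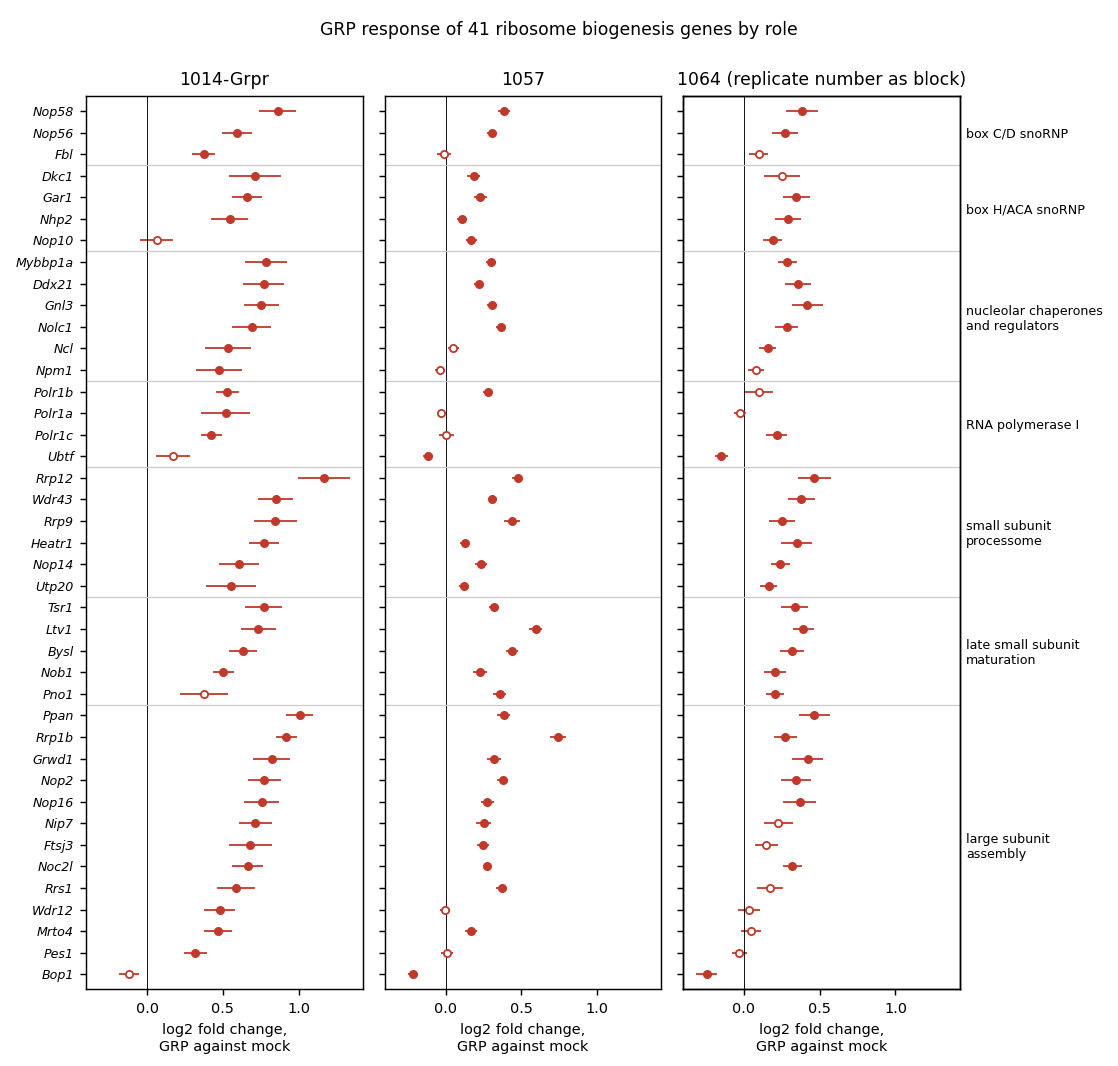
Log2 fold change of GRP against mock for 41 genes grouped by role, in 1014-Grpr, 1057 and 1064, the last with replicate number as a block. Points are estimates from 3 libraries a group, bars are 1 SE, filled points passed an adjusted p of 0.05 in edgeR and open points did not. All 6 small subunit processome genes are filled in the 3 lines, and Bop1 lies below 0 in each.

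In 1057, whose receptor is the cells' own, 32 of 41 members rose and 2 fell, with a median log2 fold change of 0.25, from -0.21 to 0.74. Of all genes tested 25.7% rose and 26.9% fell, with a median of -0.01, and 12 libraries close to each other gave standard errors of the members between 0.0274 and 0.0527. GRP lay above mock in all libraries for 32 members and for 27.6% of all genes. Grpr was lower here after GRP, at 187, 179 and 191 CPM beside 243, 247 and 246 CPM in mock (log2 fold change -0.40, adjusted p = 3.77e-08). No member passed a log2 fold change of 1 in 1057, and the difference in response from 1014-Grpr was not tested.

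Rrp1b led in 1057, from 34.9, 39.0 and 38.8 CPM in mock to 67.2, 63.1 and 57.9 CPM after GRP, a log2 fold change of 0.74 ± 0.0527 (SE, adjusted p = 1.11e-09). Ltv1 (ENSMUSG00000019814, chromosome 10 from 13178140 to 13193168), a late small subunit export factor, went from 37.5, 37.7 and 38.1 CPM to 58.1, 58.0 and 54.9 CPM. The change was 0.59 ± 0.0414 (adjusted p = 8.1e-10), and neither gene's groups overlapped. Rrp12 went from 38.3, 40.3 and 39.3 CPM to 54.5, 54.8 and 54.8 CPM (0.48). Bysl (chromosome 17 from 47599331 to 47611492), a small subunit factor, rose by 0.44 (adjusted p = 5.56e-08), and Rrp9, a U3 snoRNP protein, by 0.44 (adjusted p = 1.15e-06). Of Bysl's exon length, 9.37% overlaps Ccnd3 on the other strand, and the strand setting of the counting is not given in the sources used here.

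By role in 1057, all 6 small subunit processome members (median 0.27), all 5 late small subunit factors (0.36) and all 4 box H/ACA members (0.18) rose. Of the large subunit factors 10 of 13 rose and 1 fell (0.27), of the box C/D members 2 of 3 rose (0.31) and of the chaperones and regulators 4 of 6 (0.26). The 4 RNA polymerase I genes had a median of -0.01, with Polr1b higher by 0.28, Ubtf lower, and Polr1a (-0.03) and Polr1c (0.00) not past the test. The members not called were Fbl, Ncl, Npm1, Pes1, Polr1a, Polr1c and Wdr12. Npm1, for one, was at 908, 901 and 922 CPM in mock and 894, 895 and 875 CPM after GRP. Between 1057 and 1014-Grpr, which share no library, 30 members rose in both, 93.75% of the 32 and 81.1% of the 37. Since most of the 41 rose in each line, a large overlap follows from those counts alone. The share of all genes that rose in both was not computed. Over the 41 members the log2 fold changes of these lines had Pearson's r = 0.73 and Spearman's rho = 0.74, a description across genes that are not independent and share base composition and length.

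In 1064, the other line with its own receptor, no member was called without the block. The median log2 fold change was 0.24 and 37 of 41 estimates lay above 0, but standard errors were between 0.114 and 0.310. The lowest adjusted p of a member was 0.151, and 2 members had an unadjusted p under 0.05 in edgeR. DESeq2 called 0, with 3 under 0.05 unadjusted. Over all genes 3.62% rose and 2.76% fell. Replicate 3 was high in each treatment of this line: in mock the library medians of the members were -0.22, -0.20 and 0.34, and after GRP 0.26, -0.02 and 0.43. Without mock replicate 3 the median was 0.51 and 2 members were called, but the high GRP replicate 3 then stays in without its same-numbered mock library. No member had all GRP libraries above all mock libraries, a pattern seen in 11.2% of all genes, whereas 28 members were higher in GRP in 3 of 3 same-numbered pairs, as were 29.4% of all genes.

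With the replicate number as a block in 1064, 28 members rose and 2 fell, with a median of 0.25, beside 20.5% and 23% of all genes. The samples with the same number deviated together in this line. Ppan went from 45.6, 33.8 and 65.1 CPM in mock to 75.4, 47.4 and 74.7 CPM after GRP, higher in each pair although the groups overlap. Its blocked log2 fold change was 0.47 ± 0.102 (SE, adjusted p = 0.00403). Rrp12 went from 35.2, 37.9 and 58.7 CPM to 62.2, 49.97 and 65.7 CPM, a blocked change of 0.46 (adjusted p = 0.00643). Ltv1 had the lowest blocked adjusted p of the members, 0.0015, with a change of 0.39. By role, all 6 processome and all 5 late small subunit members rose under the block, whereas 6 of 13 large subunit members rose and 1 fell. Grpr was at 851, 1134 and 688 CPM in mock and 417, 451 and 460 CPM after GRP (log2 fold change -1.01, adjusted p = 0.00788 without the block).

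Bop1 (ENSMUSG00000022557, chromosome 15 from 76452989 to 76477277), which forms a large subunit complex with Pes1 and Wdr12, went against most members. In 1057 it was at 221, 213 and 208 CPM in mock and 179, 190 and 185 CPM after GRP, with no overlap. It fell by 0.21 ± 0.0312 on the log2 scale (SE, adjusted p = 1.3e-05). In 1064 it was at 138, 225 and 204 CPM in mock and 135, 163 and 174 CPM after GRP, a blocked change of -0.25 (adjusted p = 0.0163). In 1014-Grpr it was at 249, 250 and 258 CPM in mock and 226, 224 and 248 CPM after GRP, which passed the test under the block (-0.12, adjusted p = 0.00696) and not without it (adjusted p = 0.201). Pes1 and Wdr12, its partners, were at 0.01 and -0.00 in 1057 and at 0.32 and 0.48 in 1014-Grpr.

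Ubtf (chromosome 11 from 102304560 to 102319742), which organizes active ribosomal DNA, was the other member that fell in 1057. It was at 175, 165 and 161 CPM in mock and 152, 155 and 154 CPM after GRP, a change of -0.12 (adjusted p = 0.00552). Without 1057 mock replicate 1, the highest of these, the adjusted p was 0.0538. In 1064 its blocked change was -0.15 (adjusted p = 0.015). In 1014-Grpr the estimate had the other sign, 0.17, and passed the test under the block (adjusted p = 0.000249). Whether the lines differ in Ubtf was not tested.

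**Figure D3:**
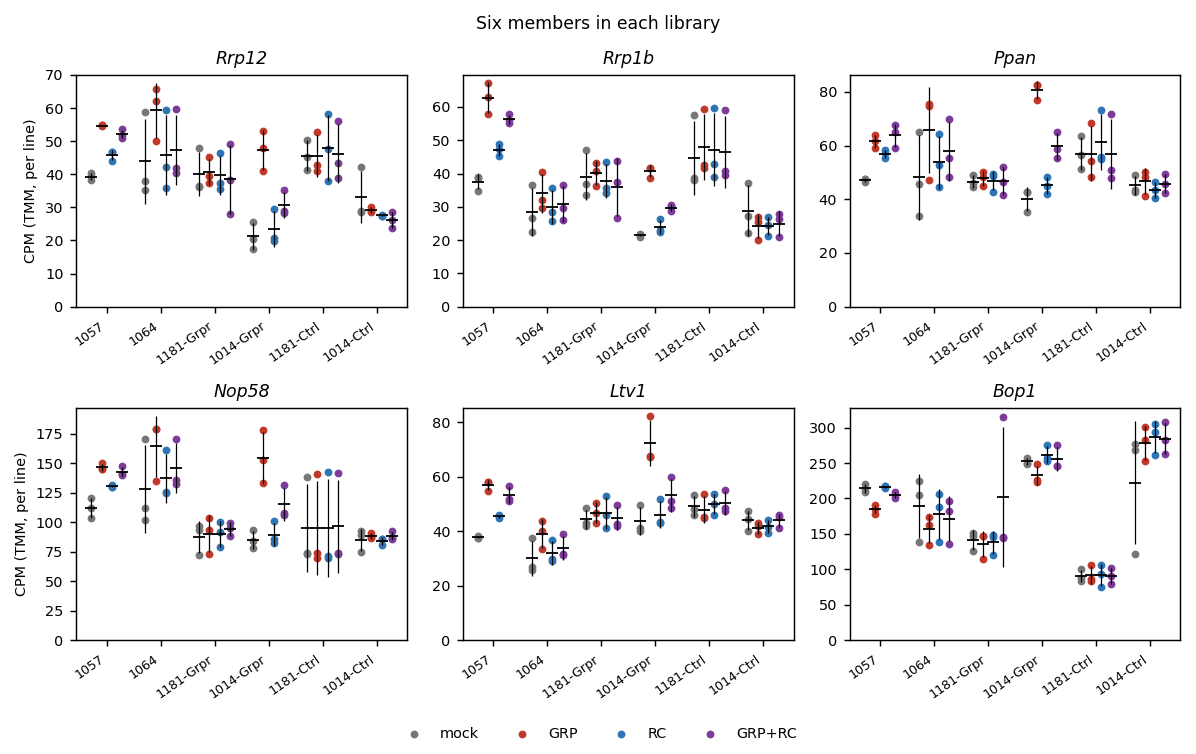
TMM-normalized CPM of Rrp12, Rrp1b, Ppan, Nop58, Ltv1 and Bop1 in each of the 72 libraries, by line and treatment. Points are libraries, horizontal bars means and vertical bars 1 SD of 3 replicates. Within 1014-Grpr the GRP libraries of the first 5 genes lie above all mock libraries, and the lowest Bop1 library of 1014-Ctrl (122 CPM in mock) and the highest of 1181-Grpr (316 CPM in GRP+RC) are those whose Grpr counts go against their labels.

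In the other 3 lines GRP changed no member detectably. In 1181-Grpr the estimates ran from -0.06 to 0.10 (median 0.02), in 1181-Ctrl from -0.08 to 0.10 (median -0.01) and in 1014-Ctrl from -0.47 for Nop16 to 0.32 for Bop1 (median -0.01). edgeR and DESeq2 each called 0 members in the 3 lines, 0 had an unadjusted p under 0.05 in edgeR, and 0% of all genes were called in each. Median standard errors were 0.134, 0.234 and 0.0973. With the replicate number as a block they were 0.0718, 0.0445 and 0.0733, the median changes 0.02, -0.01 and -0.01, and again 0 members were called, with 0, 2 and 1 at an unadjusted p under 0.05. Grpr in 1181-Grpr was low, at 18.99, 9.60 and 9.03 CPM in mock and 85.8, 20.3 and 42.2 CPM after GRP. In 1181-Ctrl replicate 1 stood above the others in each treatment, with library medians of 0.25 to 0.37 beside -0.25 to -0.13.

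The extremes in 1014-Ctrl came with 1 library. Nop16 was at 13.2, 26.7 and 13.2 CPM in its mock replicates, the second being the library whose Grpr and Ddx3y counts go against the label. Without that library the estimate was -0.05 for Nop16 and 0.03 for Bop1, and over the 41 members the estimates ran from -0.16 to 0.07.

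The GRP effect in 1014-Grpr was tested against that in 1014-Ctrl by an interaction term. It was larger for 29 of 41 members and smaller for 0, with a median difference of 0.60 on the log2 scale, where 9.08% of all genes had a larger effect. Without the library labelled 1014-Ctrl mock replicate 2, 34 members passed, beside 10.8% of all genes with a larger effect. Rrp12 differed by 1.35 (adjusted p = 0.000705) and by 1.15 without that library. Rrp1b differed by 1.17 (adjusted p = 0.000893) and by 0.96 without it. Nop16, a large subunit factor, differed by 1.22 ± 0.263 (SE, adjusted p = 0.00401) and by 0.81 without it, and Nop2, an rRNA methyltransferase with CACGTG in its window, by 1.08 (adjusted p = 0.000979) and 0.85. So 4 members exceeded 1 with the library in place, and of these Rrp12 alone did without it. The same test between 1181-Grpr and 1181-Ctrl called 0 members and 0% of all genes, with estimates from -0.15 to 0.11 and 0 members with an unadjusted p under 0.05. These versions of 1181 also differed in Xist, so the receptor and other differences between them cannot be told apart.

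How RC changed the response was asked by comparing GRP+RC with GRP. In 1014-Grpr 10 members were lower with RC and 0 higher, with a median of -0.31, beside 8.06% of all genes lower. They were Rrp12, Rrp9, Rrp1b, Ltv1, Wdr43, Ppan, Nop58, Nip7, Heatr1 and Polr1c. With the block 38 were lower and 1, Bop1, higher, beside 21.7% and 17% of all genes. With scaling to library totals alone 3 were lower and 1 higher. In 23 members all GRP+RC libraries lay below all GRP libraries, as in 16.4% of all genes. Without GRP+RC replicate 1 or 2 there were 2 such calls, without GRP replicate 3 there were 3 and without GRP replicate 2 there were 5.

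Rrp12 in 1014-Grpr was at 28.8, 28.2 and 35.3 CPM in GRP+RC, between mock (20.5, 17.4 and 25.7 CPM) and GRP (41.1, 48.1 and 53.1 CPM). The change from GRP was -0.63 (adjusted p = 0.0332). Rrp1b was at 30.1, 30.5 and 28.7 CPM in GRP+RC, a change of -0.45 from GRP (adjusted p = 0.00153) and of 0.47 from mock (adjusted p = 0.015), and no library of these 3 treatments overlapped with another treatment. Ppan, at 58.7, 55.3 and 65.1 CPM, was the other member higher in GRP+RC than in mock. Those 2 calls compare with 0.765% of all genes, and without 1014-Grpr mock replicate 2 or GRP+RC replicate 3 there were 0, without mock replicate 1 there was 1. With the block 37 members were higher than mock and 0 lower, beside 10.1% of all genes. For 25 members all GRP+RC libraries lay above all mock libraries, as for 9.02% of all genes. Grpr in GRP+RC was at 191, 208 and 269 CPM, also between mock and GRP.

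RC alone changed no member detectably in 1014-Grpr, where 0% of all genes were called. The median was 0.08, from -0.01 to 0.19, and 2 members had an unadjusted p under 0.05. With the block the median was again 0.08 and 0 members were called, but 13 had an unadjusted p under 0.05 in edgeR. In 1064, RC alone and GRP+RC each called 0 members against mock without the block, with 0% of all genes in both and 0 members with an unadjusted p under 0.05. With the block again 0 members were called. Their medians were then 0.09 for RC and 0.13 for GRP+RC, with 2 and 8 members at an unadjusted p under 0.05 in edgeR. Shares of all genes at that unadjusted p are not given here. GRP+RC against GRP in 1064 called 0 members, beside 0.029% of all genes. With the block 1 member, Rrp12, was lower (-0.35, adjusted p = 0.0456), where 10.9% of all genes were lower. In 1181-Grpr, 1181-Ctrl and 1014-Ctrl these 3 comparisons called 0 members and 0% of all genes, and in 1014-Ctrl 4 members of GRP+RC against mock had an unadjusted p under 0.05. Without the 2 libraries that went against their labels, 0 members and 0% of all genes were called in 1181-Grpr and 1014-Ctrl in each comparison, and no member had an unadjusted p under 0.05 in GRP+RC against mock. The highest estimate of GRP+RC against mock was then 0.21 in 1181-Grpr and 0.15 in 1014-Ctrl.

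In 1057, RC alone was followed by higher levels of 33 members and lower levels of 0, with a median of 0.20 and at most 0.33, where 13% of all genes rose. For 33 members all RC libraries lay above all mock libraries, as for 18.8% of all genes. In GRP+RC 34 members were higher than in mock and 0 lower, with a median of 0.27, beside 21.3% of all genes. These comparisons and that of GRP use the same mock libraries, and 30 members were higher in all 3. The labels give DMSO for mock only, and its part in these changes was not tested. The share of all genes higher in all 3 was not computed. Rrp1b was at 48.8, 47.3 and 45.3 CPM in RC (0.33, adjusted p = 0.000189) and at 57.8, 56.0 and 55.2 CPM in GRP+RC, above all mock and below all GRP libraries. Ltv1 was at 45.9, 44.7 and 45.6 CPM in RC and at 51.9, 56.8 and 51.2 CPM in GRP+RC. Grpr was at 185, 189 and 186 CPM in RC. Whether the effect of RC differs between 1057 and 1014-Grpr was not tested.

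Against GRP alone, GRP+RC in 1057 changed few members. Bop1, Ncl, Nhp2, Polr1a and Wdr12 were higher, at most by 0.19 for Ncl, where 11% of all genes were higher. Rrp1b, Nip7 and Polr1b were lower, by at most 0.15, where 13.7% were lower. The direction depended on scaling, since with library totals alone 9 were higher and 0 lower. Without GRP replicate 1 there were 5 calls, all higher. Bop1 was at 209, 205 and 201 CPM in GRP+RC and at 217, 215 and 218 CPM in RC, and its rise from GRP was 0.15 (adjusted p = 0.00156).

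**Figure D4:**
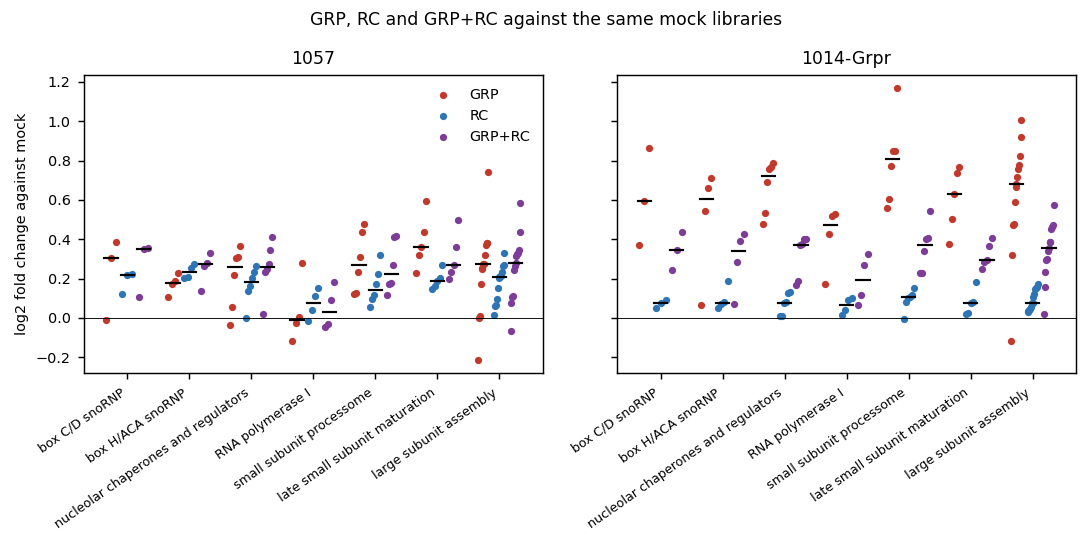
Log2 fold changes against the same 3 mock libraries for GRP, RC and GRP+RC in 1057 and 1014-Grpr, by role class. Points are genes and horizontal bars class medians. In 1014-Grpr RC points stay between -0.01 and 0.19 and the class medians of GRP+RC lie between those of RC and GRP, whereas in 1057 the members' medians of RC (0.20), GRP (0.25) and GRP+RC (0.27) lie close together.

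Genes of the same pathway outside the 42 were read from lists. Of 87 other ribosome biogenesis genes 65 rose and 0 fell in 1014-Grpr (median 0.41) and 60 rose and 4 fell in 1057 (median 0.18). Pwp2 (1.01) and Rrp15 (0.95), of small and large subunit processing, had the largest changes in 1014-Grpr, and Urb1 (0.62) and Rrp8 (0.60) in 1057. Without the block, 1 rose in 1064, Rrp8 at 0.85 (adjusted p = 0.0216). The GRP effect was larger in 1014-Grpr than in 1014-Ctrl for 49 and smaller for 0, beside 9.08% of all genes larger, and without the library labelled 1014-Ctrl mock replicate 2 it was larger for 53 and smaller for 0, beside 10.8%. Among 77 cytosolic ribosomal protein genes tested, whose products are the ribosome's own proteins, 7 rose and 0 fell in 1014-Grpr (median 0.10), and 16 rose and 0 fell in 1057 (median 0.07). Shares of all genes that rose were 16.3% in 1014-Grpr and 25.7% in 1057, so the rises counted here, 9.09% and 20.8% of the genes tested, were below that background. The falls, 0 in both lines, were also below it, since 12.7% of all genes fell in 1014-Grpr and 26.9% in 1057.

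The other lists are given beside the background of the same comparisons, in which 16.3% of all genes rose and 12.7% fell in 1014-Grpr, and 25.7% rose and 26.9% fell in 1057. Of 20 genes of RNA polymerase III, which makes 5S rRNA and tRNA, 4 rose and 1 fell in 1014-Grpr, with Polr3d at 0.74 and Polr3e at 0.50, and 3 rose and 8 fell in 1057, with Polr3d at 0.55. Maf1, the repressor of this polymerase, fell by 0.50 in 1057 and by 0.32 in 1014-Grpr. Of 19 nucleotide synthesis genes 6 rose and 3 fell in 1014-Grpr and 8 rose and 8 fell in 1057. Adss, of AMP synthesis, rose by 1.12 and Ctps, of CTP synthesis, by 0.62 in 1014-Grpr. In 1057 Umps, of UMP synthesis, rose by 0.75 and Rrm1, of ribonucleotide reductase, fell by 0.40.

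Myc, the transcription factor that drives many ribosome biogenesis genes, moved in the same lines. In 1014-Grpr it was at 50.7, 58.0 and 52.9 CPM in mock and 95.7, 119 and 109 CPM after GRP, a log2 fold change of 1.00 ± 0.113 (SE, adjusted p = 5.15e-05). In GRP+RC it was at 64.1, 78.6 and 82.9 CPM, lower than in GRP by 0.52 (adjusted p = 0.0102). Its effect was larger than in 1014-Ctrl by 1.24 (adjusted p = 0.000455) and by 0.98 (adjusted p = 0.000112) without the library labelled 1014-Ctrl mock replicate 2. In 1014-Ctrl the mock library that goes against its label, at 88.7 CPM, stands above the other two at 55.6 and 53.6 CPM. In 1057 Myc went from 194, 208 and 205 CPM to 245, 250 and 241 CPM after GRP (0.28, adjusted p = 5.57e-07) and was at 232, 235 and 230 CPM in RC (0.20). In 1064 it was at 86.7, 87.7 and 109 CPM in mock and 154, 102 and 139 CPM after GRP (0.48, adjusted p = 0.1). Whether Myc has a part in the members' response was not tested.

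The MYC network list held 2 genes that rose and 4 that fell among 9 in 1014-Grpr, and 6 and 3 among 9 in 1057. The MXD proteins compete with MYC for Max and repress the same E-box genes. Mxd1 fell by 0.76 in 1014-Grpr and by 0.66 in 1064, where it was the 1 gene of 10 called. In 1057 Mxd4 fell by 0.81 and Mxd3 by 0.72, and Max rose by 0.27. Mxd4 in 1057 was at 176, 169 and 168 CPM in mock and 102, 93.5 and 97.6 CPM after GRP, the groups lying far apart. Rrn3, which recruits RNA polymerase I, rose by 0.37 in 1014-Grpr (adjusted p = 0.00064) and by 0.09 in 1057 (adjusted p = 0.0161). Mycn was tested in 1064, where it was at 0.42 (adjusted p = 0.645), and in 1181-Grpr.

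Reads of some members could also come from other genes. Stretches of 100 bases shared with another gene made up 22% of Tsr1 (Srr), 17.5% of Noc2l (Samd11), 15.3% of Fbl, 12.7% of Npm1, 11.6% of Nop56 and 6.98% of Bysl, and 26 members shared none. Tsr1 and Noc2l overlap Srr and Samd11 on the other strand over 32.3% and 20.9% of their exon length, so their values are uncertain, and by how much was not tested. Several members carry snoRNA genes within them, 5 in Nop56, 4 in Nop58 and 3 each in Ncl, Gnl3 and Wdr43.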

How the data were processed

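The authors deposited raw counts per gene for 72 libraries and TPM values from the same reads. Per the labels and the paper's methods, polyA-selected stranded libraries were checked with FastQC 0.11.5 and aligned with STAR to mm10 (GRCm38.p5). The counting tool's strand setting is not given in the sources used here. TPM values, with a decimal comma in line 1057, served for levels per length and as an alternative. Positions and overlaps came from GENCODE release 21 for the mouse.

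Each line was fitted on its own (12 libraries, R 4.3.3, edgeR 4.0.16): filterByExpr, TMM, quasi-likelihood test, Benjamini-Hochberg over all genes tested, called at an adjusted p under 0.05. The study's threshold, an absolute log2 fold change above 1, was added as an alternative. Interaction terms used both versions of a line. Each standard error was derived from the F statistic and the fold change. The other alternatives were DESeq2 1.42.0, RLE scaling, library totals alone, no filter, limma 3.58.1 on log2(TPM + 1) and log2(TPM + 0.1), 1 fit of all libraries, leaving out each library or both libraries that go against their labels, and the replicate number as a block. For the other biogenesis genes and Myc, leaving out the 1014-Ctrl library was chosen after seeing the data. Steps were tested on simulated data in which 200 genes were changed. For GRP against mock, edgeR without the block recovered 72% of genes changed by 0.5 on the log2 scale in 1057 and 42% in 1014-Grpr. It recovered 15% in 1014-Ctrl, 4% in 1181-Ctrl, 2% in 1181-Grpr and 1% in 1064. For the difference between versions, edgeR without the block recovered 8% in 1014 and 1% in 1181. Counts of 0 without the block in 1014-Ctrl, 1181-Ctrl, 1181-Grpr, 1064 or the 1181 difference thus say little about changes of that size. Library totals ran from 19512882 to 46862053.

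Replicate numbers were taken from the labels. Deviations from group means of same-numbered GRP and mock libraries correlated at over 0.1 in all 3 pairs of each line except 1057, where they were 0.00758, 0.0446 and 0.0483. In 1064 they were 0.721, 0.66 and 0.583 and in 1014-Grpr 0.434, 0.447 and 0.513. The numbers were therefore taken to pair samples in all lines but 1057.

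Full statistics are given for the 5 members with the largest called change per line, members called above 1, and members called against most others. Of other lists, at most 2 genes each were named, by size of change among those called, besides Myc, Mycn, Max, Rrn3 and the label checks. Other members are examples within their role. Pes1, Wdr12, Npm1, Nop10 and the blocked values of 1064 were named after their values were seen. The members and lists were chosen with earlier results of these data known.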

Additional observations from a re-analysis of the deposited data

Results flagged for a closer look

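The GRP effect on the ribosome biogenesis genes differed between 1014-Grpr and 1014-Ctrl. An interaction term in edgeR was past an adjusted p of 0.05 for 29 of the 41 members tested, in each case with the larger effect in 1014-Grpr, and for 34 without the library labelled 1014-Ctrl mock replicate 2. Of all genes tested, 9.08% had a larger effect in 1014-Grpr, and 10.8% without that library. The cells differ by the Grpr transgene, and each version is 1 line, so the transgene and the line cannot be told apart.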

How the results depend on the processing

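Counts of members called were within 1.5 times the value given in 506 of 540 alternatives, and 0 members of the named ones reversed in 340. The 540 include comparisons with 0 calls in every alternative, among them all of 1181-Grpr, 1181-Ctrl and 1014-Ctrl and the 1181 difference. Such counts agree trivially, and the changed counts fall in the other comparisons. The named members had been picked from called changes, which favours their holding. Of those 340, 8 were no longer past the threshold, 7 of them in 1057 in 1 fit of all 72 libraries and the other Ubtf without 1057 mock replicate 1. That fit, with 1 estimate of spread for all lines, called 3 members for GRP, 0 for GRP+RC against GRP, 3 for GRP+RC against mock and 0 for RC in 1057, 2 for GRP in 1064, 1 for GRP+RC against GRP and 0 for GRP+RC against mock in 1014-Grpr, and 15 for the difference in 1014. Requiring an absolute log2 fold change above 1 as well left 0 in the 4 comparisons of 1057, 2 for GRP and 0 for GRP+RC against GRP or mock in 1014-Grpr, and 4 for the difference. The replicate block gave 30 for GRP and 1 for GRP+RC against GRP in 1064, 39 for GRP+RC against GRP and 37 for GRP+RC against mock in 1014-Grpr, and moved no other count by over 1.5 times. GRP+RC against GRP in 1014-Grpr had 4 calls with library totals alone, 3 with limma on log2(TPM + 1) and 21 without the filter, and GRP+RC against mock 13 with DESeq2 and 13 without the filter. The cause of these shifts was not tested.

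Leaving out single libraries gave 33 to 34 calls for GRP in 1057, 5 to 11 for GRP+RC against GRP in 1057, 33 to 37 for GRP in 1014-Grpr, 2 to 12 for GRP+RC against GRP and 0 to 2 for GRP+RC against mock in 1014-Grpr, 0 to 2 for GRP in 1064 and 23 to 34 for the difference. Scaling to library totals alone moved the median of all genes after GRP from -0.02 to -0.16 in 1064 and from -0.02 to -0.13 in 1014-Grpr, with the members' medians at 0.11 and 0.54. It moved the split of all genes after GRP to 2900 higher and 4994 lower in 1057, 374 and 1015 in 1064, and 1535 and 3330 in 1014-Grpr, and the members' to 29 and 4 in 1057 and 32 and 1 in 1014-Grpr. Wdr74 was the one member with under 228 counts in a library, and the cause was not tested.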
